A study of Drosophila melanogaster with 44 samples.

Results

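The peptidoglycan recognition protein (PGRP) genes of Drosophila melanogaster were followed on 44 Affymetrix arrays of adult females that lacked 1 copy of a chromosome segment, and of wild type. The members were the 9 genes PGRP-LA, PGRP-LB, PGRP-LC, PGRP-LE, PGRP-LF, PGRP-SA, PGRP-SB1, PGRP-SC2 and PGRP-SD, chosen by symbol through the probe-set annotation. A probe set of its own was matched for 6 of the 9: PGRP-LE (gene ID 32534, arm X), PGRP-LA (39062, 3L), PGRP-LF (39064, 3L), PGRP-LB (41379, 3R), PGRP-SB1 (39870, 3L) and PGRP-SC2 (35862, 2R). PGRP-LC, PGRP-SA and PGRP-SD were not matched and were not analysed here. Each of the 6 had 1 probe set, and all 6 passed the filter of a mean log2 value of at least 6, as did 7485 of the 11889 genes placed on a chromosome arm (63.0%).

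Every sample was a pool of 15 females collected within 0 to 24 h of adult life from crosses kept at 25 °C, and the labels name no infection or other treatment. The deleted segments lay on 2L in Df(2L)ED4559 and Df(2L)ED3, and on 2R in Df(2R)ED1612 and Df(2R)ED1770. They lay on 3R in Df(3R)ED10953, Df(3R)ED7665 and Df(3R)ED5071. Each deletion is called here by its ED name. The labels write each over a normal chromosome except in 4 doubles, where 2 deletions of the same arm faced each other. These were ED4559 and ED3, ED1770 and ED1612, ED5071 and ED10953, and ED7665 and ED10953. The arms 2L and 2R belong to the same chromosome. How the deletions were arranged in doubles of a 2L and a 2R deletion is not settled by the labels. ED4559, ED3, ED1612, ED1770 and ED10953 alone had 3 arrays each, ED5071 and ED7665 alone had 2 each, 19 pairwise combinations had 1 array each, and wild type had 6. The labels give no strain for the wild type, so the genetic background of the deletion stocks cannot be told apart from the deletions. Values are log2 expression values on the RMA scale, differences are on that scale, and levels of different genes were not compared, since each rests on its own probes.

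Peptidoglycan recognition proteins bind the peptidoglycan of bacterial cell walls. PGRP-LC and PGRP-LE are the receptors of the Imd pathway, which runs through the caspase Dredd to the NF-kB factor Relish and switches on antimicrobial peptide genes in the gut and the fat body. PGRP-SA and PGRP-SD act in the hemolymph upstream of the Toll pathway. PGRP-LF lacks a receptor's signalling tail and restrains PGRP-LC, and PGRP-LA, its neighbour on 3L, modulates Imd signalling in barrier epithelia. PGRP-LB, PGRP-SB1, PGRP-SC2 and its paralogs PGRP-SC1a and PGRP-SC1b are amidases that cut peptidoglycan, and the LB and SC enzymes are known to damp Imd signalling in the gut.

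Properties of the arrays touched several results. Wild-type replicates 4 and 5 were rich in late ovary RNA: the mean of 8 eggshell genes was 4.20 and 3.61 higher there than over wild type as a whole. On the same scale, wild-type replicates 1, 2, 3 and 6 had -3.17 to -0.96. The labels number the arrays, with wild type at 1 to 6 and every deletion array at 7 or higher, so array number and deletion cannot be told apart in any comparison with wild type. All arrays with ED5071 or ED7665 have numbers of 27 or higher, as do the third replicates of the other 5 deletions, numbered 43 to 47. The 10 gut markers lay 0.84 ± 0.18 above the wild-type mean in the 19 deletion arrays numbered from 27 and 0.33 ± 0.34 in the 19 numbered up to 26. The 13 germline markers lay at 0.44 ± 0.41 and -0.21 ± 0.30 in the same arrays (SD). In whole flies, fewer cells of a type and less RNA per cell cannot be told apart.

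The 6 genes differed in how much they varied. PGRP-LE was the steadiest, with values between 8.55 and 9.05 over the 44 arrays and an SD that ranked at the 4.14 percentile of all tested genes. PGRP-LA (6.86 to 8.42) and PGRP-LF (5.84 to 7.50) ranked at 63.8 and 69.4, and PGRP-LB (7.33 to 9.26) at 85.3. The secreted amidases PGRP-SC2 (8.57 to 12.07) and PGRP-SB1 (7.44 to 11.15) ranked at 96.7 and 97.6. PGRP-LE thus ranked lowest of the 6 and PGRP-SC2 and PGRP-SB1 highest, though spread, like level, rests on each gene's own probes. The SD of 0.75 for PGRP-SC2 takes in the 8 carriers of ED1770, which lack 1 copy of the gene. In the 36 non-carriers it was 0.58.

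**Figure D1:**
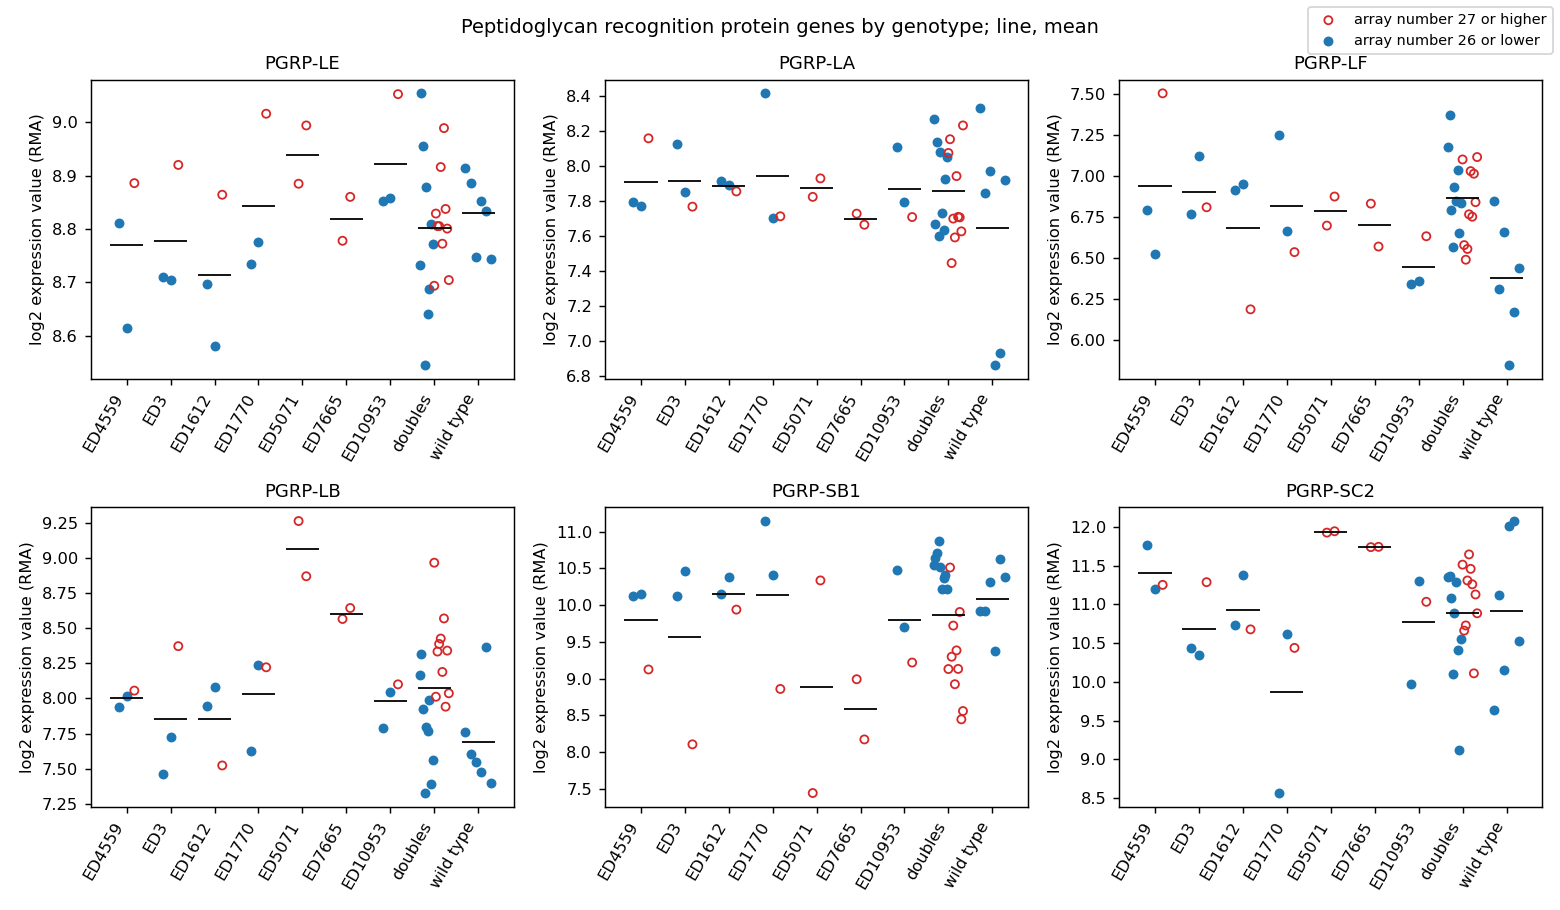
Log2 expression value (RMA scale, vertical axis, a separate range for each gene) of the 6 genes in every array, by genotype (horizontal axis; single deletions, doubles, then wild type). Points are arrays, open red for numbers of 27 or higher and filled blue for 26 or lower, and lines are means; PGRP-LB is highest in ED5071 at 9.26 and 8.87, and PGRP-SC2 is lowest in ED1770 at 8.57.

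PGRP-LE, the intracellular and secreted Imd receptor, did not pass the test in any comparison of a deletion with its control. Its values in the 19 single-deletion arrays had a lowest value of 8.58, a median of 8.85 and a highest of 9.05, against 8.74, 8.84 and 8.91 in the 6 wild-type arrays. The ranges overlapped, and the mean of the 7 deletions stood at -0.0039 ± 0.061 relative to wild type (SE, adjusted p = 0.980, limma). The genotype means spanned 0.23, with ED1612 lowest at 8.71 ± 0.14 (SD, n = 3) and ED5071 highest at 8.94 ± 0.08 (SD, n = 2). None of the 7 neighbouring pairs in that order was separated by more than the larger SD of the pair. PGRP-LE differed with array number. In all 5 deletions with arrays in both number groups, the third replicate (8.89 in ED4559, 8.92 in ED3, 8.86 in ED1612, 9.02 in ED1770 and 9.05 in ED10953) was above both earlier ones. The array-number term of the additive fit, a covariate there, put PGRP-LE 0.17 ± 0.05 higher from 27 on than up to 26 (SE, adjusted p = 0.00757, limma), a term that 41.6% of all tested genes also passed. Adjusted for the germline list, the PGRP-LE term was 0.10 and did not pass.

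PGRP-LA, the regulatory member, showed its lowest values in wild type. The 19 single-deletion arrays had a lowest value of 7.67, a median of 7.83 and a highest of 8.42. Wild type had 6.86 and 6.93 in replicates 4 and 5, below every single-deletion array, and 7.85 to 8.33 in the other 4 arrays, inside their range. The mean of the 7 deletions was 0.23 ± 0.17 above wild type (SE, adjusted p = 0.453, limma). Without wild-type replicates 4 and 5 the difference had the opposite sign, -0.15 (adjusted p = 0.391, limma). It was 0.07 without wild-type replicate 4, 0.08 without replicate 5 and 0.37 without replicate 1. Adjusted for the germline list it was 0.31 and passed (adjusted p = 0.0442, limma). The 7 deletion means spanned 7.70 ± 0.04 (ED7665, SD, n = 2) to 7.95 ± 0.41 (ED1770, SD, n = 3), and no neighbouring pair in the order was further apart than its larger SD.

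PGRP-LA moved opposite to the ovary. Over the 44 arrays its Pearson r was -0.76 with the eggshell list and -0.71 with the germline list, and Spearman's rho was -0.70 and -0.69 (adjusted p = 6e-05 for each r and 0.000108 for each rho, permutation tests over the 54 pairs of a gene and a list; the unadjusted p was 1e-05, the smallest that 100000 resamples give). Without the 2 arrays farthest from the median of the list, r was -0.63 and -0.68. Within arrays numbered from 27 it was -0.67 and -0.77, and within those up to 26 it was -0.84 and -0.87. With the Toll list the r of PGRP-LA was 0.66 and rho 0.73, and r was 0.64 from 27 and 0.78 up to 26. How other tested genes moved with these lists was not examined, so the relation is not shown to be particular to PGRP-LA. Arrays of the same deletion share a genotype and are not fully independent, which holds for every correlation given here.

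PGRP-LF, the membrane-bound inhibitor, was lowest in wild type without passing the test. The single deletions had a lowest value of 6.19, a median of 6.77 and a highest of 7.50. Wild type had 6.84, 6.31, 6.66, 5.84, 6.17 and 6.44 in replicates 1 to 6, so the groups overlapped. The difference was 0.38 ± 0.16 (SE, adjusted p = 0.170, limma). It was 0.19 without wild-type replicates 4 and 5 (adjusted p = 0.433), and 0.41 adjusted for the germline list, where it passed (adjusted p = 0.0455, limma). Among the genotypes, ED10953 at 6.44 ± 0.16 (SD, n = 3) was next to wild type at 6.38 ± 0.36 (SD, n = 6), and ED4559 was highest at 6.94 ± 0.51 (SD, n = 3), with no neighbouring pair further apart than its larger SD.

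Across the comparisons with wild type, 1 call was made among the 6 genes. None of the 6 passed in the mean of the 7 deletions, where 1.56% of the tested genes did, but under alternative settings PGRP-LB passed in 6 of 37, and PGRP-LA and PGRP-LF in 1 each. For the single deletions, the shares of all tested genes called were 0.401% in ED4559, 0.12% in ED3, 0.468% in ED1612, 0.668% in ED1770, 1.22% in ED5071, 0.347% in ED7665 and 0.361% in ED10953, and the call among the 6 was PGRP-LB in ED5071. The 7 comparisons share the same 6 wild-type arrays. The F test among the 7 deletions, which uses no wild-type mean, called none of the 6 and 2.28% of all tested genes.

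PGRP-LB, the amidase that is itself a target of the Imd pathway in the gut and fat body, was higher in ED5071 females. Its values were 9.26 and 8.87 in the ED5071 arrays, against a lowest of 7.40, a median of 7.58 and a highest of 8.37 in wild type. Both ED5071 arrays were above all 6 wild-type arrays. The difference of 1.37 ± 0.24 (SE), or 2.59-fold, passed the test (adjusted p = 0.00521, limma). The gene lies on 3R outside the mapped interval of ED5071. Its probe set is of a class that can match several transcripts. The gut marker list was at 0.92 and 0.97 above the wild-type mean in the ED5071 arrays, against -0.80 to 0.80 in wild type, and its part in the result was not tested. With array number as a block the difference was 1.21 and did not pass (adjusted p = 0.0873), and without ED5071 replicate 1 it was 1.18 (adjusted p = 0.385, limma).

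ED7665, the other deletion whose arrays all have high numbers, came next for PGRP-LB. ED7665 alone had 8.57 and 8.64, both above the wild-type highest of 8.37, with a difference of 0.91 ± 0.24 that did not pass (SE, adjusted p = 0.190, limma). In the order of genotype means, ED5071 stood at 9.07 ± 0.28 and ED7665 at 8.60 ± 0.06 (SD, n = 2 each), followed by ED1770 at 8.03 ± 0.35 (SD, n = 3). The gaps between these 3 were larger than the larger SD of each pair. From ED1770 down to wild type at 7.69 ± 0.35 (SD, n = 6), no neighbouring pair was separated by that much. The F test among deletions gave 5.33 (adjusted p = 0.0829, limma), and the mean of the 7 deletions was 0.51 ± 0.14 above wild type (SE, adjusted p = 0.0620, limma). These PGRP-LB results lay near the threshold. The F test passed in 4 of 37 alternatives (lowest adjusted p = 0.0176), the mean in 6 of 37 (lowest 0.0182) and ED7665 in 3 of 36 (lowest 0.00994, limma). The settings without wild-type replicate 5, without replicates 4 and 5, and with a replicate block were among those for all 3. In arrays numbered up to 26 alone the mean was 0.20 (adjusted p = 0.512, limma).

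Of the 5 doubles with ED5071, 4 were below both ED5071 arrays for PGRP-LB. Their values were 8.97 with ED4559, 8.43 with ED3, 8.39 with ED1612, 8.33 with ED1770 and 8.01 with ED10953. The first 4 were above every array of the partner deletion alone, and the double with ED10953 lay within the partner's 7.79 to 8.10. These doubles all have numbers of 27 or higher, while the partner arrays include earlier numbers, so array number was not held constant. Doubles with ED7665 were likewise above every array of the partner for ED4559 (8.19), ED10953 (8.57) and ED1612 (8.34). For ED1770 (7.94) and ED3 (8.04) they lay within the partner's range. Over all arrays, the 7 ED5071 carriers averaged 8.61 ± 0.44 and the 37 non-carriers 7.94 ± 0.36 (SD), a difference of 0.67 (two-sided p = 1e-04, permutation test with 100000 resamples). All 7 carriers were above the median of the non-carriers. This gene and deletion were chosen for permutation tests after their values were seen, and the 7 carriers include the ED5071 arrays that gave the call. The tests are therefore not independent of that call. All carriers have numbers of 27 or higher, so the test over all arrays does not hold array number constant. Among arrays numbered from 27, the 7 carriers averaged 8.61 ± 0.44 and the 12 non-carriers 8.21 ± 0.32 (SD), a difference of 0.39 (two-sided exact permutation p = 0.0342). In the additive fit, which holds array number constant, the ED5071 term was 0.54 ± 0.19 and did not pass (SE, adjusted p = 0.106, limma). It passed in 3 of 54 alternatives: 0.74 without the array-number block (adjusted p = 0.00042), 0.61 with the germline list as a covariate (adjusted p = 0.0282), and 0.68 without the double with ED10953 (adjusted p = 0.0278, limma).

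**Figure D2:**
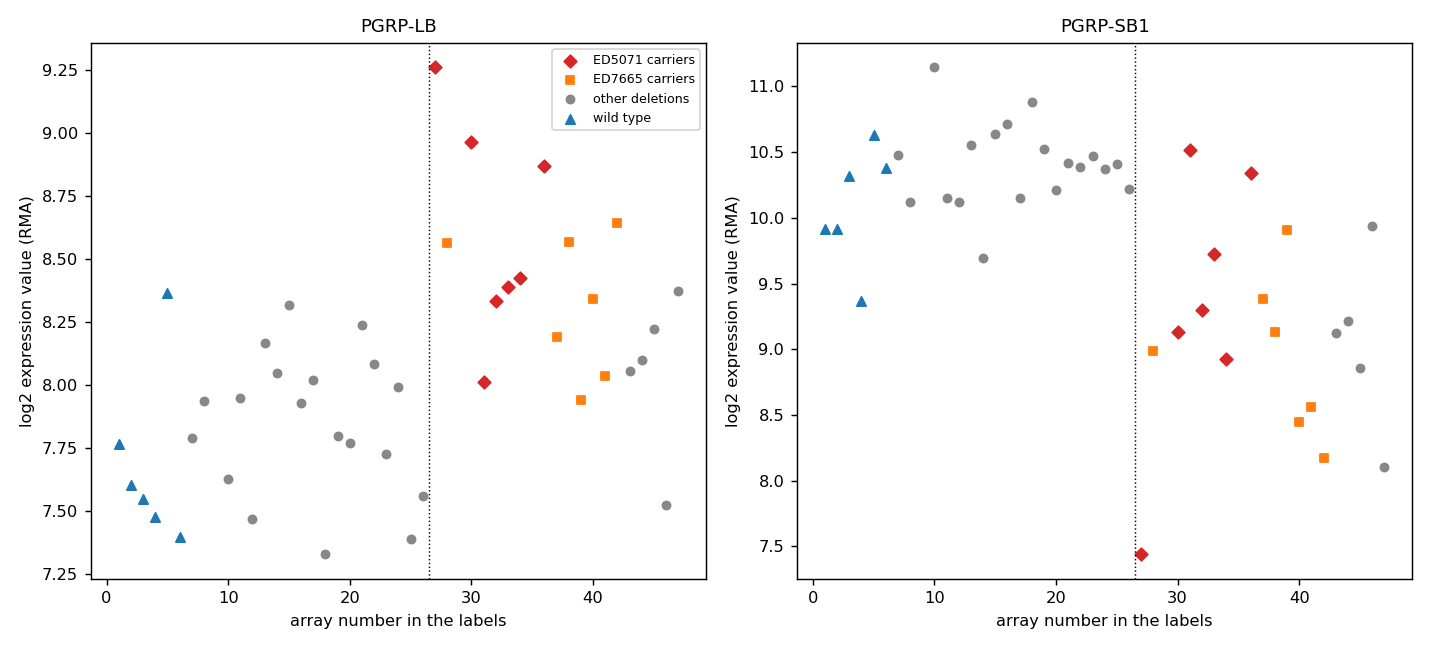
Log2 expression value (RMA scale) of PGRP-LB (left) and PGRP-SB1 (right) against the array number in the labels. Red diamonds are ED5071 carriers, orange squares ED7665 carriers, grey points other deletions and blue triangles wild type, with the dotted line between numbers 26 and 27; to its right 14 of 19 PGRP-SB1 values lie below every deletion array to its left, and 11 of 19 PGRP-LB values lie above.

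PGRP-SB1, a secreted amidase of the fat body response, was lower in the arrays with high numbers. The 19 deletion arrays numbered from 27 averaged 9.11 ± 0.78 and the 19 numbered up to 26 averaged 10.40 ± 0.32 (SD). Of the first, 14 were below the lowest of the second, 9.70. The third replicates, numbered 43 to 47, had 9.12 in ED4559, 8.10 in ED3, 9.94 in ED1612, 8.86 in ED1770 and 9.22 in ED10953, and each was below both earlier replicates of its own deletion. The array-number term of the additive fit was -1.26 ± 0.26 (SE, adjusted p = 0.000241, limma). PGRP-SB1 and PGRP-LE were the 2 of the 6 genes that passed this term, beside 41.6% of all tested genes.

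No deletion moved PGRP-SB1 past the threshold. ED5071 had 7.44 and 10.34, and ED7665 had 8.99 and 8.17, against a lowest of 9.37, a median of 10.12 and a highest of 10.63 in wild type. The ED5071 arrays thus held the lowest PGRP-SB1 value of the series and one inside the wild-type range. The differences were -1.20 ± 0.67 in ED5071 and -1.51 ± 0.67 in ED7665 (SE, adjusted p = 0.372 and 0.448, limma). With array number as a block, the difference in ED5071 had the opposite sign, 0.06 (adjusted p = 0.985, limma). ED1612 had the highest mean at 10.16 ± 0.22 (SD, n = 3) and ED7665 the lowest at 8.58 ± 0.58 (SD, n = 2), and no neighbouring pair was further apart than its larger SD. The additive fit gave 0.51 ± 0.22 for ED1770 (SE, adjusted p = 0.297, limma).

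PGRP-SC2, a secreted gut amidase, lies inside the segment that ED1770 removes, and was lower in carriers. The interval, mapped on these arrays, runs on 2R between Acsl and Gnptab and holds 60 tested genes. Since carriers were set against non-carriers to map it, the place of a gene in it and its fall in carriers are not independent. The 3 ED1770 arrays had 8.57, 10.61 and 10.44. The 5 doubles with ED1770 had 10.10 with ED4559, 9.12 with ED3, 10.42 with ED1612, 10.73 with ED5071 and 10.11 with ED7665. Each double was below every array of its partner deletion alone, in 5 of 5 pairs, with a difference from the partner's mean between -1.63 and -0.51. All 8 carriers lay below the median of the 36 non-carriers, and 2 lay below all of them.

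The 8 carriers averaged 10.01 ± 0.77 and the 36 non-carriers 11.13 ± 0.58 (SD), a difference of -1.12, which puts carriers at 46.1% of the non-carrier level (two-sided p = 0.00013, permutation test with 100000 resamples). In arrays numbered from 27 the difference was -0.91 (3 carriers and 16 non-carriers, two-sided exact permutation p = 0.00310), and in those up to 26 it was -1.20 (5 carriers and 20 non-carriers, two-sided exact permutation p = 0.00297). In the additive fit it was -1.11 ± 0.24 (SE, adjusted p = 0.00431, limma). PGRP-SC2 was the 1 of the 6 genes that passed in an additive term of a deletion. The shares of all tested genes called there were 2.59% for ED4559, 1.54% for ED3, 1.52% for ED1612, 1.95% for ED1770, 3.14% for ED5071, 0.908% for ED7665 and 7.82% for ED10953.

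ED1770 alone, with 8.57, 10.61 and 10.44, did not separate from wild type. Wild type had 9.64, 11.12, 10.15, 12.01, 12.07 and 10.52 in replicates 1 to 6, and replicates 4 and 5 were the highest PGRP-SC2 values of the series. The ED1770 arrays overlapped with replicates 1, 3 and 6. The difference of -1.05 ± 0.50 did not pass (SE, adjusted p = 0.690, limma; two-sided exact permutation p = 0.179, where 0.0119 is the smallest that 3 against 6 arrays allow). Without ED1770 replicate 1 the difference was -0.39. The gut marker list followed wild-type PGRP-SC2, with 0.73 and 0.80 in replicates 4 and 5 and -0.80, -0.63 and -0.46 in replicates 1, 3 and 6. In carriers and non-carriers of ED1770 the gut list stood at 0.56 ± 0.47 and 0.49 ± 0.47 (SD). Among carriers it was lowest in the double with ED3 (-0.19) and in ED1770 replicate 1 (0.05). Those arrays also had the lowest PGRP-SC2 values, 9.12 and 8.57. The part of the gut list in the fall of PGRP-SC2 was not tested.

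**Figure D3:**
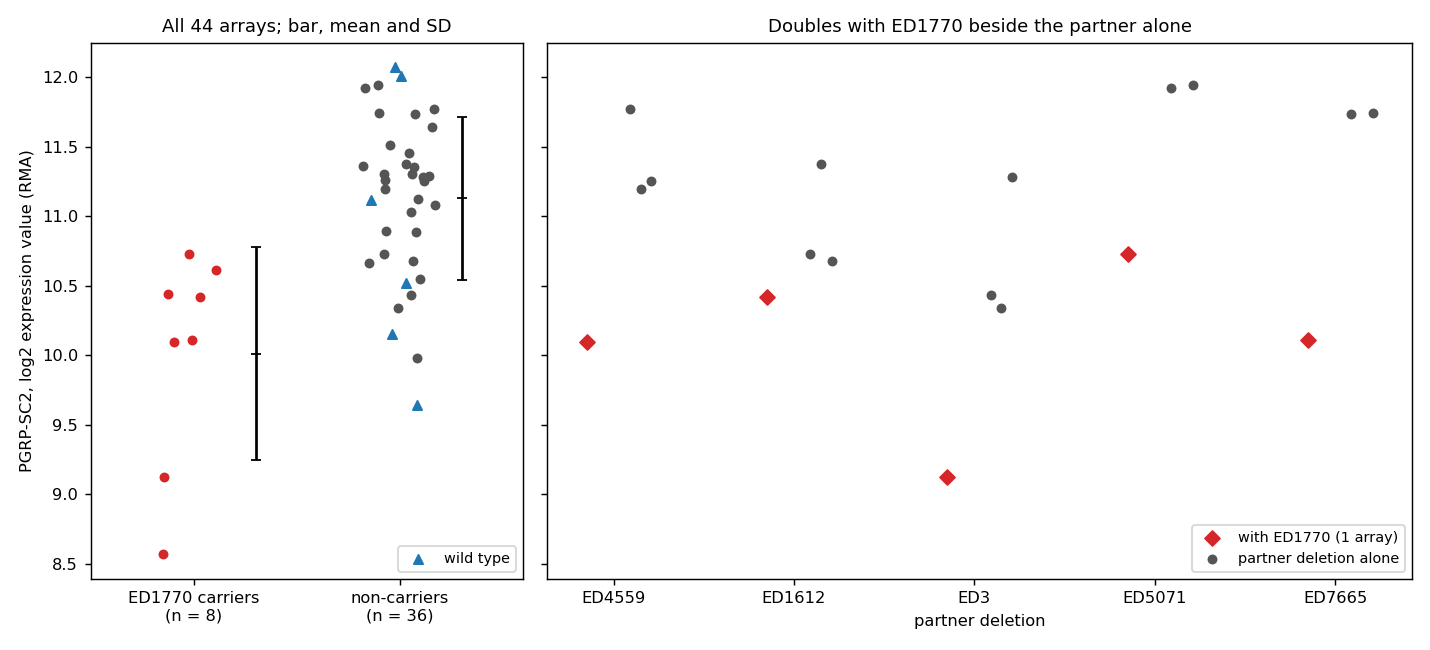
Log2 expression value (RMA scale) of PGRP-SC2. Left, all 44 arrays as 8 ED1770 carriers (red) and 36 non-carriers (grey, wild type as blue triangles) with mean and SD; right, the 5 doubles with ED1770 (red diamonds) beside the arrays of the partner deletion alone (grey), each double lying below them.

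The fall of PGRP-SC2 was close to that of the genes removed with it. The median additive difference over the 60 interval genes was -0.95, where a level in proportion to copy number gives -1. The test was passed by 57 of the 60. Since the interval was mapped from carriers minus non-carriers on these arrays, that median and that count are not independent of the mapping. PGRP-SC2 was the 7th lowest. Its nearest tested neighbours had -0.88 ± 0.11 (CG8738) and -1.03 ± 0.13 (CG8586) on one side, and -0.97 ± 0.05 (CG14767) and -0.76 ± 0.15 (gcl, which acts in germ cell formation) on the other (SE). The most reduced gene of the interval was Jon44E, a Jonah serine protease, at -1.45 ± 0.27 (SE), named after its value was seen.

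**Figure D4:**
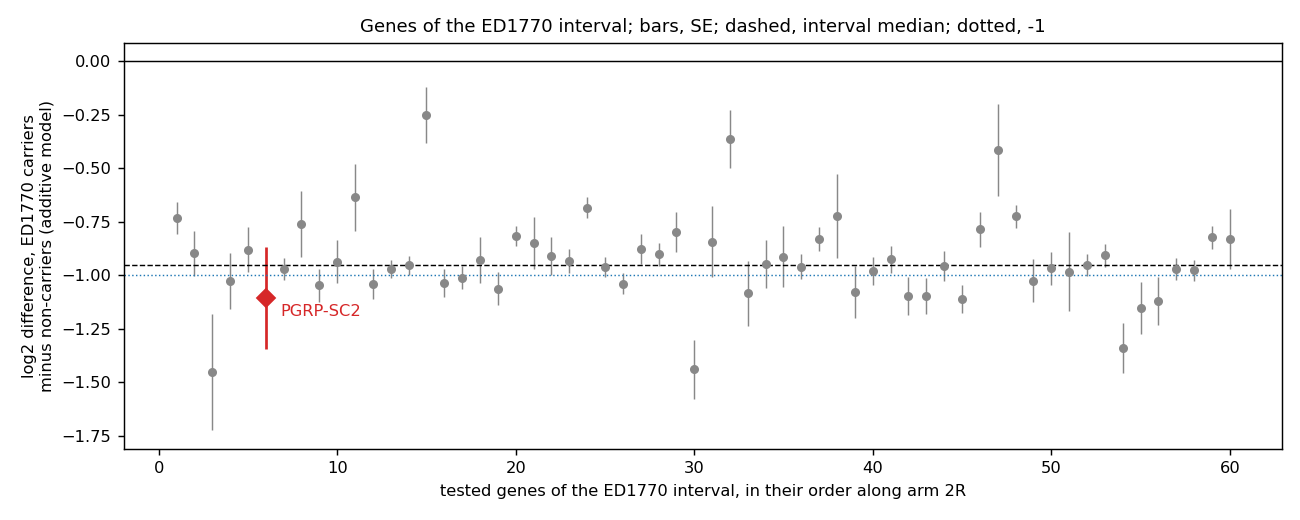
Additive log2 difference of ED1770 carriers minus non-carriers (vertical axis, bars SE) for the 60 tested genes of the interval in their order along arm 2R (horizontal axis, rank). The dashed line is the interval median of -0.95, the dotted line is -1, and PGRP-SC2 (red diamond) stands at -1.11.

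Between the other deletions, PGRP-SC2 was highest in ED5071 (11.92 and 11.94) and ED7665 (11.74 in both arrays). Their means were above ED4559 at 11.41 ± 0.32 (SD, n = 3) by more than the larger SD of each pair in the order. Between ED5071 and ED7665 that SD was 0.01 and rests on 2 arrays. All these ED5071 and ED7665 arrays have numbers of 27 or higher. Their gut marker list stood at 0.92 to 1.06, and its part was not tested. The differences of ED5071 and ED7665 from wild type, 1.01 ± 0.57 and 0.82 ± 0.57, did not pass (SE, adjusted p = 0.376 and 0.587, limma). In the additive fit, which holds array number constant, the terms were 0.38 ± 0.34 and 0.18 ± 0.34 (SE, adjusted p = 0.632 and 0.999, limma). ED4559 in turn was above ED1612 at 10.93 ± 0.39 (SD, n = 3) by more than the larger SD. ED1612, ED10953, ED3 and wild type lay between 10.69 and 10.93, with no pair of neighbours separated by more than its larger SD.

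Of the other family members on the array, PGRP-SB2 had a mean below the filter, with values between 4.34 and 5.39. A probe set shared by PGRP-SC1b and PGRP-SC1a, both inside the ED1770 interval, can be assigned to neither. It averaged 10.48 ± 1.66 in the 8 carriers and 11.25 ± 1.34 in the 36 non-carriers (SD), and the ranges, 7.10 to 11.79 and 8.20 to 12.85, overlapped. A probe set shared by Pmi and PGRP-LD lay between 4.99 and 6.03.

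Doubles did not depart from the sum of their deletions for any of the 6 genes in the term common to all 19 doubles. The largest departure was that of PGRP-LB, -0.52 ± 0.21 (SE, adjusted p = 0.414, limma). That term called 1 gene in all (0.0134%), and 881 genes had an unadjusted p under 0.05.

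The 6 genes fell into patterns that crossed their arms. PGRP-LB and PGRP-SC2 moved together, with r = 0.61 and rho = 0.65 over the 44 arrays (adjusted p = 0.000225 and 0.000150, permutation tests over 15 pairs of genes). The r was 0.59 without the 2 farthest arrays, 0.76 in arrays numbered from 27 and 0.51 in those up to 26. PGRP-LA and PGRP-LF, which lie near each other on 3L, had r = 0.56 (0.53 from 27, 0.59 up to 26) and rho = 0.40, and r was 0.34 without the 2 farthest arrays. PGRP-LB and PGRP-SB1, both amidases, had r = -0.59, which was -0.45 in arrays from 27 and 0.12 in those up to 26, so the relation did not hold within both number groups. In all, 5 of the 15 pairs passed with adjustment, and 3 of the 5 had the same sign in both number groups. The share among pairs of other tested genes was not computed.

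PGRP-SB1 followed the antimicrobial peptide genes. Its r with the mean of the 9 tested peptide genes was 0.81 and rho was 0.80 (adjusted p = 6e-05 and 0.000108, permutation tests over 54 pairs). It was 0.75 without the 2 farthest arrays, 0.62 in arrays from 27 and 0.64 in those up to 26. With the 6 fat body markers r was 0.72 (0.55 from 27 and 0.32 up to 26), and with the 11 hemocyte markers it was 0.67 (0.65 and 0.17). The fat body list itself was lower in deletion arrays from 27 (-0.47 ± 0.50, SD) than in those up to 26 (0.13 ± 0.23, SD), and its part in the fall of PGRP-SB1 was not tested.

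PGRP-LB and PGRP-SC2 followed the gut markers, with r = 0.63 and 0.62 and rho = 0.72 and 0.58. For PGRP-LB r was 0.33 in arrays from 27 and 0.51 in those up to 26, and for PGRP-SC2 it was 0.17 and 0.65. In the 36 arrays that carry both copies of PGRP-SC2 the value for that gene was 0.82. PGRP-LB also had r = 0.57 with the 9 tested genes that restrain Imd signalling (0.23 from 27 and 0.35 up to 26). With the Imd core list its r was 0.21 and did not pass. With the antimicrobial peptide list the r of PGRP-LB was -0.56 (-0.39 from 27 and 0.01 up to 26). With the Toll list it was -0.50 (-0.59 from 27 and 0.01 up to 26). Of the 54 pairs of a gene and a list, 31 passed with adjustment, and 25 of those had the same sign in both number groups.

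**Figure D5:**
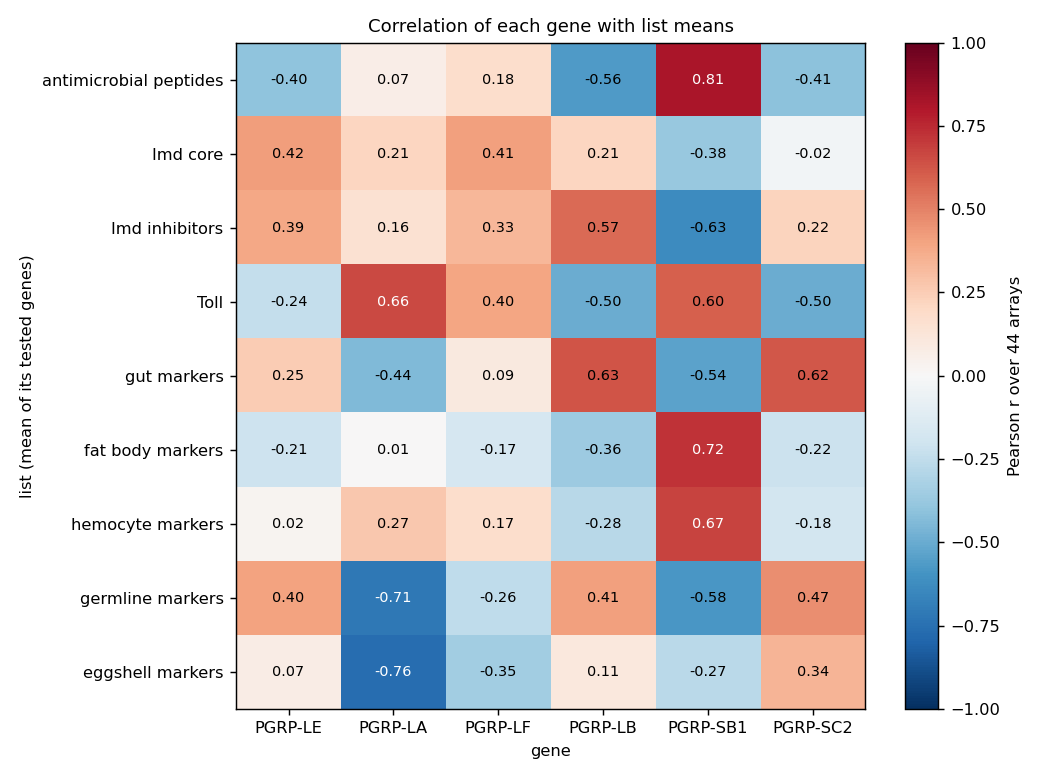
Pearson r over 44 arrays between each of the 6 genes (columns) and the mean of the tested genes of 9 lists (rows); red is positive and blue negative. The strongest values are 0.81 for PGRP-SB1 with antimicrobial peptides and -0.76 for PGRP-LA with eggshell markers.

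Among all tested genes, those most like each member were found by Pearson r over the 44 arrays, as a description. PGRP-LF was most like CG13248 (0.72) and Rel (0.71), the gene of the Imd factor Relish. For Rel the value was 0.78 in arrays from 27, 0.69 in those up to 26, and 0.72 after the germline list was regressed out of both. PGRP-LB was most like the serpin gene Spn55B (0.82) and pirk (0.81), an inhibitor of PGRP-LC signalling that Relish induces, and pirk had 0.74 from 27 and 0.67 up to 26. PGRP-SC2 was most like the gut proteases Jon44E (0.87), which shares its deleted interval, and Jon65Aii (0.80), which lies on 3L outside every interval.

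PGRP-SB1 was most like CG34253 (0.86) and Obp99c (0.84), an odorant-binding protein gene, but within arrays numbered up to 26 these values were 0.31 and 0.33. PGRP-LA was most like hoe2 and form3, a formin gene, both at 0.92, and form3 kept 0.85 with the germline list regressed out, when CG7220 was first at 0.86. PGRP-LE was most like Vsp37A (0.82), a gene of endosomal sorting, and CG7878 (0.81). With the germline list regressed out, ClC-b, a chloride channel gene, took the second place for PGRP-LE (0.79) and Tom7, of the ED1770 interval, for PGRP-SC2 (0.79), while for the other 3 genes the same pair led.

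Calls among Imd pathway genes downstream of the receptors are given beside the share of all tested genes. Of 11 tested core genes none passed when the 7 deletions together were set against wild type, where 1.56% of all tested genes did. The median difference of the core genes was -0.04, beside -0.01 over all tested genes. The largest differences were those of Rel, 0.33 ± 0.11 (SE, adjusted p = 0.110, limma), and ben, a ubiquitin-conjugating enzyme, 0.27 ± 0.12 (SE, adjusted p = 0.197, limma). In ED5071, where PGRP-LB was high, neither Rel nor pirk passed. Rel had 0.68 ± 0.19 above wild type (SE, adjusted p = 0.0892, limma). The difference of pirk was 1.62 ± 0.48 (SE, adjusted p = 0.104, limma). The antimicrobial peptide list stood at -1.52 and -0.23 from the wild-type mean in the ED5071 arrays, against -0.51 to 0.53 in wild type. In the additive fit Dredd fell by 0.29 in ED5071 (SE 0.07, adjusted p = 0.0225) and Charon, listed as pickle and an inhibitor of Relish, by 0.43 (SE 0.12, adjusted p = 0.0328, limma). Both lie outside the ED5071 interval, and they were 1 of 11 core genes and 1 of 9 inhibitors called, beside 3.14% of all tested genes. The call was lost in 6 of 54 alternatives for Dredd (adjusted p up to 0.138) and 8 of 53 for Charon, which was -0.19 without the array-number block and -0.25 without ED3 replicate 3 (adjusted p = 0.172 and 0.241, limma).

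The array-number term was passed by shares of the inhibitors and the peptide genes close to the 41.6% of all tested genes. Of the 9 inhibitors, 4 were higher from 27 on and none lower: pirk by 0.83 ± 0.23, trbd by 0.55 ± 0.11, POSH by 0.39 ± 0.13 and Charon by 0.29 ± 0.10 (SE). Of the 11 core genes, Diap2 and Uev1A rose, by 0.20 ± 0.05 and 0.17 ± 0.07 (SE). Of the 9 antimicrobial peptide genes, 4 were lower: Drsl4 had -1.65 ± 0.45, DptB -1.24 ± 0.47, Drsl5 -0.97 ± 0.20 and CecB -0.77 ± 0.30 (SE). Of the 17 Toll pathway genes, 5 were higher, between 0.22 and 0.46 (Tl, spz, dl, tub and Pli), and 5 were lower, between -0.67 and -0.41 (GNBP3, Hayan, spirit, grass and nec). Of the 10 gut markers, 7 were higher and none lower. With the germline list as a covariate POSH, Charon, Uev1A, CecB, GNBP3, grass, nec, Tl, spz and dl no longer passed, and Uev1A (-0.021), grass (0.068) and nec (0.048) changed sign. Leaving out ED3 replicate 3 put Charon at 0.11 and pirk at 0.63, and neither passed (adjusted p = 0.375 and 0.0530, limma).

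Some antimicrobial peptide genes were called by deletion. Def and Drs, which encode defensin and drosomycin, were higher in ED1770 carriers. Def had a lowest value of 8.81, a median of 9.91 and a highest of 11.21 in the 8 carriers, against 6.46, 8.60 and 11.02 in the 36 non-carriers, and the groups overlapped. Its additive difference was 1.39 ± 0.35 (SE, adjusted p = 0.0192), and that of Drs was 0.25 ± 0.06 (SE, adjusted p = 0.0109, limma). These were 2 of 9 tested peptide genes, beside 1.95% of all tested genes called in that term. The median was 0.59 over the 9, beside -0.03 over all tested genes. Leaving out any of 4 doubles, those of ED1770 with ED1612, ED3, ED5071 and ED7665, took Def to adjusted p between 0.0515 and 0.0922, and leaving out the double with ED7665 took Drs to 0.0647. As many peptide genes passed in the ED10953 term, Drsl5 at 0.61 ± 0.17 and Drsl2 at -0.78 ± 0.23 (SE, adjusted p = 0.0208 and 0.0238, limma), beside 7.82% of all tested genes. Each lost its call in 5 of 54 alternatives, with adjusted p up to 0.0871 for Drsl5 and 0.0916 for Drsl2 (limma). Drsl2 also passed the F test among deletions (adjusted p = 0.0370, limma), a call lost in 21 of 37 alternatives.

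Mtk, which encodes metchnikowin, was lower in deletion arrays than in wild type. It had a lowest value of 6.03, a median of 8.81 and a highest of 10.42 in the 19 single-deletion arrays, against 9.28, 10.33 and 11.51 in wild type. The mean difference was -1.67 ± 0.39 (SE, adjusted p = 0.0346), and in ED5071 it was -3.06 ± 0.68 (SE, adjusted p = 0.0317, limma). The mean lost its call in 14 of 37 alternatives. In arrays numbered up to 26 alone its adjusted p was 0.420, with array number as a block 0.203 and with a replicate block 0.0903 (limma). Leaving out any 1 of 10 arrays, or wild-type replicates 4 and 5 together, also took its adjusted p above 0.05, to at most 0.0748. The ED5071 difference lost its call in 5 of 36 alternatives. It was -1.78 without ED5071 replicate 1 (adjusted p = 0.868) and -2.65 with array number as a block (adjusted p = 0.245, limma). Without wild-type replicate 3 or 6, or with interval genes left out, its adjusted p was 0.0571 to 0.0578.

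Of the 17 tested Toll pathway genes, none passed in the comparison of all 7 deletions together, where 1.56% of all tested genes did. In ED5071 the shares of all tested genes called were 1.22% against wild type and 3.14% in the additive fit. The call in ED5071 was tub, the adaptor Tube, at -1.10 ± 0.14 against wild type (SE, adjusted p = 9.3e-05) and -1.29 ± 0.08 in the additive fit (SE, adjusted p = 5.63e-15, limma). It lies inside the ED5071 interval, and the 2 ED5071 arrays had at most 7.24, against 7.94 to 8.38 in wild type.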

How the data were processed

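Each sample, total RNA of pooled adult females, had its own Affymetrix array. What the authors deposited is a log2 level for every probe set, made with RMA per the submitters' processing notes. The RMA version and the annotation used were not given in the sources used here, and the log base was inferred from the range of 2.58 to 14.66. Precision depends on how many arrays a group has. Array medians lay between 5.50 and 5.73 and correlations between arrays between 0.950 and 0.997.

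Of 18952 probe sets, the platform annotation gave 1 gene to 13647, several to 402 and listed none for 4903. Genes were placed on arms by gene identifier with RefSeq Release 6, used for names and gene order only. For genes with several probe sets (728 of those tested) the one with the highest mean was taken. Each deleted interval was mapped as the best-scoring run of neighbouring genes on its arm from carriers minus non-carriers, so membership of an interval, that of PGRP-SC2 included, rests partly on these values.

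Genotypes were read from sample titles, where replicates are named as biological. Tests were limma 3.58.1 (R 4.3.3) with a trended eBayes prior, Benjamini-Hochberg adjusted over 7485 genes at 0.05: group means over wild type and single deletions, and an additive model of 7 deletions over 44 arrays with array number (up to 26 or from 27) as a block, with and without a term for doubles. Permutation tests and correlations used Python 3.11.15 with scipy 1.17.1 and up to 100000 resamples. The fits were tested on simulated data with independent noise for each gene and array. That simulation held no pattern shared by array number, ovary content or replicate, so it does not cover those properties of the arrays. The members, the lists and the tests were chosen with earlier results of these data known. Genes named beside the members were, for each member, the 2 most correlated genes with and without the germline list regressed out, the 2 tested neighbours on each side in the ED1770 interval, and of each pathway list those called or otherwise the 2 with the largest differences. Alternatives varied the filter, probe sets, normalization, covariates, blocks and arrays.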

Additional observations from a re-analysis of the deposited data

How the results depend on the processing

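The fall of PGRP-SC2 in ED1770 carriers kept its direction in all 15 alternatives to the permutation test, with -1.26 to -0.91, and passed in 14; for single carriers against wild type it was -1.05 (p = 0.179, exact permutation). In the additive fit it passed in all 53 alternatives, with -1.21 to -0.92. PGRP-LB in ED5071 against wild type kept its direction in 36 alternatives, with 1.18 to 1.57, and passed in 34. Among the comparisons of the 7 deletions together with wild type, signs of members that did not pass turned. Without wild-type replicates 4 and 5, PGRP-LE had 0.0027 and PGRP-LA -0.15. With array number as a block, PGRP-SB1 had 0.14 and PGRP-SC2 -0.032, and in arrays up to 26 alone they had 0.22 and -0.29. Adding the germline list as a covariate, PGRP-SC2 had -0.023. PGRP-SB1 in ED5071 had 0.065 with array number as a block. Leaving out 1 array gave -0.021 to 0.013 for PGRP-LE, -0.13 to 0.36 for PGRP-SC2, and -2.65 to 0.25 for PGRP-SB1 in ED5071. In the array-number term, Uev1A had -0.021, grass 0.068 and nec 0.048 with the germline covariate. The cause of these turns was not tested. Over 51 results for single genes and 2407 alternatives, 28 turned, 139 lost a call and 18 gained one, all 18 of them for PGRP-LB, PGRP-LA or PGRP-LF.

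Deviations of same-numbered replicates had a median r of 0.23 (44 of 71 pairs over 0.1, -0.73 to 0.85), against -0.10 for other pairs (40 of 140 over 0.1). Not every pair passed 0.1 and the labels tie numbers to no shared source, so numbers were not treated as pairing, but the third replicates of 5 deletions also share the later array numbers. With a replicate block the 7 deletions together gave 1516 calls (117 without), the deletions one by one 5693 (268), and the F test 669 (171), and PGRP-LA had -0.19. Adding the germline list as a covariate, the counts were 1613, 1025 and 395, the additive fit gave 4250 (1457 without) and the term for doubles 2. Without wild-type replicates 4 and 5 the 7 deletions together gave 251 calls, the deletions one by one 477, the additive fit 3247 and the term for doubles 3. In arrays up to 26 alone the counts were 3, 82 and 51 for the 3 comparisons of single deletions, and with array number as a block the 7 deletions together gave 11. With fewer genes tested, leaving out interval genes gave 44 calls one by one and 7 in the F test, and a mean of at least 7 gave 0 for doubles. Without the array-number block the additive fit gave 3206 calls and the term for doubles 12. Leaving out 1 array gave 28 (wild-type replicate 4) to 189 (ED3 replicate 2) calls for the 7 deletions together. The count was 48 without ED7665 replicate 2, 55 without ED5071 replicate 1, and 66, 69 and 75 without wild-type replicates 1, 2 and 3. The term for doubles gave 0 (without wild-type replicate 1) to 3 (without replicate 5).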
